A study of Rattus norvegicus with 4 samples.

Results

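The genes of cholesterol and fatty acid synthesis were listed by name, as 29 enzymes and regulators in pathway order. Of these, 25 had a row in the count files under their own symbol among 25810 gene rows, and all 25 passed the filter on low values. Acat2, Mvk, Cyp51 and Fasn had no row under that name. RNA was sequenced from 2 clones of PC12, a rat line derived from a pheochromocytoma of the adrenal medulla. The clone wtPC12, described as wild type, has low levels of the repressor REST, and the clone hrPC12 has high levels, and 2 libraries were made from each, with no transgene or treatment named in the labels. As 1 clone stands for each level of REST, its effect cannot be told apart from whatever else separates these clones. The labels do not say whether the libraries of a clone came from separate cultures, so p values measure only the spread between these libraries, which may be technical.

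Cells build cholesterol from acetyl-CoA through the mevalonate pathway, which yields the isoprenoid units of squalene, and squalene is closed to lanosterol and trimmed to cholesterol in the endoplasmic reticulum. Fatty acids are built from the same acetyl-CoA. Both routes are set by the SREBP transcription factors, which Scap carries to the Golgi for cleavage when sterols are scarce and which the Insig proteins hold back when sterols are plentiful. In neuroendocrine cells cholesterol is also a main lipid of the secretory granule and synaptic vesicle membranes.

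The starting regions of these genes hold letters that are known to bind partners of SREBP, above all the CCAAT box of the factor NF-Y. Promoter sequences of 18 of the 25 genes were taken from RefSeq (build GRCr8), 19 starts in all since Srebf1 has 2. The 250 bases before each start were searched on both strands. Scd1 was left out because 2 rows of the count files fall on its RefSeq entry. For the remaining genes no promoter was found. CCAAT was present in 17 of the 19 member promoters (89.5%) and in 34.0% of all 33469 rat promoters searched in the same way. The GC box GGGCGG, a site of Sp1, was present in 84.2% of the member promoters and 30.5% of all, and the E-box CACGTG in 15.8% and 5.59%. The core of the sterol regulatory element, TCACNCCAC, was not found in any of the 19 and was present in 0.974% of all promoters, which says only that these letters are not in these windows. Below are the promoters of Tm7sf2, Mvd and Ebp, since these are 3 of the 4 genes that were lower in hrPC12. The fourth, Pmvk, is not shown because no promoter was found for it, so it was not searched. Each is written 5′ to 3′ on the strand of the gene and ends at the base before the start, with CCAAT on either strand in capitals, read as ATTGG where it lies on the other strand.
Tm7sf2 (chr1:212789542-212789791, minus strand): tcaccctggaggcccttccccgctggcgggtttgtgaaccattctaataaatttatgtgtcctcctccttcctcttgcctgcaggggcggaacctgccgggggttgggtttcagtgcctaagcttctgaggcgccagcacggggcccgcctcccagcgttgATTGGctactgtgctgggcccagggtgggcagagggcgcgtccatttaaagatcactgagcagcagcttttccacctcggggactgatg
Mvd (chr19:67414975-67415224, minus strand): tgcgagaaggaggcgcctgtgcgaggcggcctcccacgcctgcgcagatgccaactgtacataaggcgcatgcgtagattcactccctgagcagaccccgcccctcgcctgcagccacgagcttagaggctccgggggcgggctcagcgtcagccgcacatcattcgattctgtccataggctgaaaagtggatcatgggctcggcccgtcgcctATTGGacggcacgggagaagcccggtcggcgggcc
Ebp (chrX:16971212-16971461, plus strand): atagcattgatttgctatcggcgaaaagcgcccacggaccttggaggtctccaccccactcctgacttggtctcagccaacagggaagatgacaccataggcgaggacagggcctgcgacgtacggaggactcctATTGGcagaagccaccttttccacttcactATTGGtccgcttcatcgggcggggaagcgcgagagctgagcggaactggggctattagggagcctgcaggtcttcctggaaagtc
The box begins 89 bases before the start in Tm7sf2, 35 in Mvd, and 115 and 85 in Ebp, and none of these boxes overlaps a GC box.

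Reads on genes ranged from 20975027 to 27246502 per library. The transcript of REST itself, Rest, had 43.0 and 132 normalized counts in the wtPC12 libraries and 964 and 915 in the hrPC12 libraries (log2 FC 3.42). Of 10 chromaffin cell markers, 9 had a row. Their summed level was 935883 to 1105400 normalized counts in wtPC12 and 47621 to 52595 in hrPC12, with 7 of the 8 tested past the thresholds in the lower direction. Chgb alone had 687936 and 626776 in wtPC12. The other tested marker, Ddc, was not lower (log2 FC 0.27) and made up 26281 of the 47621 in hrPC12 replicate 1. The 6 leukocyte markers summed to 39.6 and 35.0 normalized counts in wtPC12 and 85.5 and 96.1 in hrPC12, and 1 of the 2 tested, Cd68, was higher in hrPC12 (log2 FC 1.63, adjusted p = 0.0283, and 0.0446 without hrPC12 replicate 1, edgeR). Of 8 adipocyte and hepatocyte markers, 6 had a row and 1 was tested, Adipoq, with 651 and 686 normalized counts in hrPC12 and 23.3 and 16.5 in wtPC12, while Lep was at 0 reads in all libraries. In such bulk RNA, fewer cells of a type and less RNA per cell cannot be told apart.

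The library hrPC12 replicate 1 stood apart from replicate 2 in a part of the genes. The log2 ratio of normalized counts of replicate 1 to replicate 2 had a median of −0.0046 over the 13726 genes tested, and exceeded 0.4 in 25.6% of them, which form a second peak near 0.8. Of the 25 genes of lipid synthesis, 7 lay in that peak, with ratios from 0.77 (Nsdhl) to 0.95 (Acaca), namely Hmgcs1, Nsdhl, Insig1, Scap, Acaca, Acly and Scd1. The other 18 ranged from −0.24 (Fdps) to 0.38 (Insig2). In the order of genes on GRCr8, the 10 nearest placed genes had a median ratio of 0.78 around Hmgcs1, 0.81 around Nsdhl and 0.91 around Acaca, and all 10 were above 0.4 in each case. Around Insig1 the median was 0.35 with 5 of 10 above, around Insig2 0.42 with 5 of 10 above, around Scap 0.01 and around Acly −0.10, and Scd1 could not be placed. The library hrPC12 replicate 1 also had the most reads on genes (27246502). Outside genes it had 40120485 reads, against 25622741 to 27866327 in the other libraries. Its reads in more than 1 gene numbered 236166, against 55908 to 78907. Values without hrPC12 replicate 1 are given beside the results, and the cause of its excess was not tested.

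**Figure D1:**
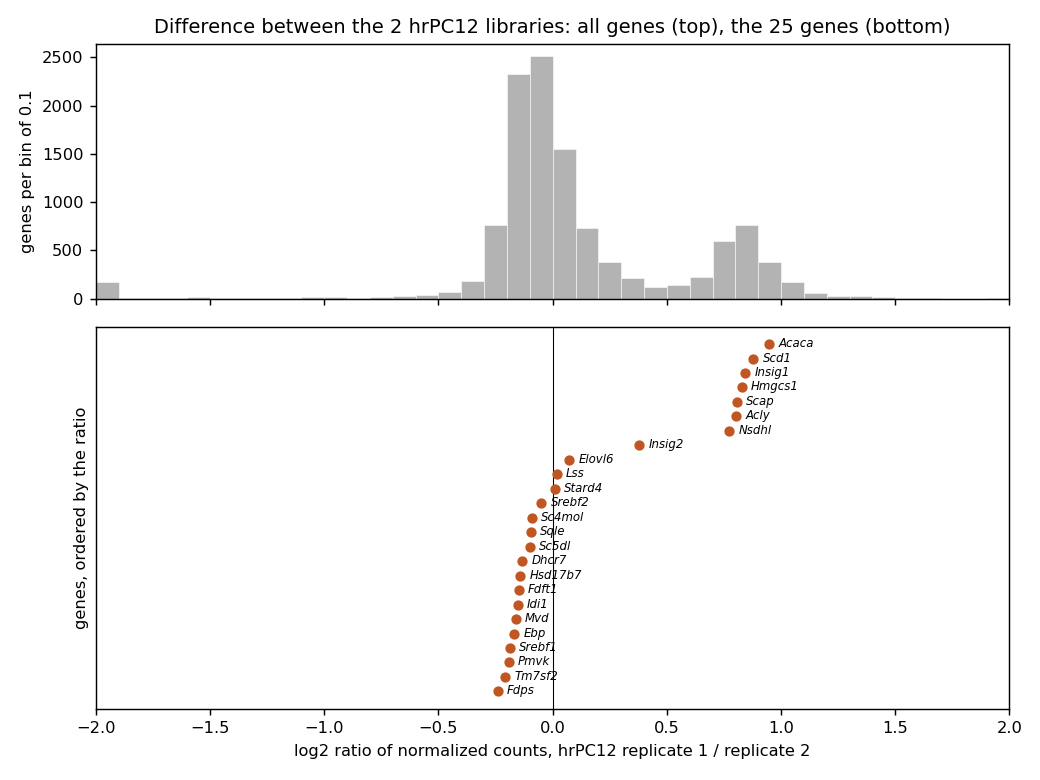
Log2 ratio of normalized counts of hrPC12 replicate 1 to replicate 2, as a histogram over tested genes with a mean of at least 50 normalized counts (top, genes per bin of 0.1, with values past either end gathered in the end bins) and for each of the 25 genes (bottom, ordered by the ratio). Of the 25 genes, 7 sit in the right-hand peak, from 0.77 to 0.95, and the other 18 sit at or below 0.38.

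Between the clones, 4 of the 25 genes were lower in hrPC12 with an adj. p value under 0.05, Tm7sf2, Mvd, Pmvk and Ebp, and 0 were higher (edgeR's quasi-likelihood test, Benjamini-Hochberg adjustment over all 13726 genes). By the same rule 16.3% of all genes were lower and 16.1% higher. The row CP51A_RAT, which may count Cyp51 and is not among the 25, was higher by this rule. Before adjustment, p from edgeR's test was under 0.05 in 11 of the 25. Of these, Pmvk, Mvd, Fdft1, Sqle, Tm7sf2, Ebp, Sc5dl and Srebf2 had a log2 FC below 0 and Insig1, Acaca and Scd1 one above 0. The share of all genes with such a p was not computed, so this count is no result about the list. DESeq2 called 5 of the 25 lower and 2 higher, against 18.7% and 18.8% of all genes. With edgeR on RLE factors the background was 17.6% lower and 17.8% higher, and on library totals alone 15.5% and 19.5%, and under either setting 1 of the 25, Insig1, was higher. The stricter thresholds used in the study were an adj. p value below 0.01 and an absolute log2 FC above 2. They were passed by 1 of the 25, Tm7sf2, and by 10.3% of all tested genes, a share that was 12.4% without hrPC12 replicate 1, 12.9% with RLE factors, 12.7% with library totals and 13% with DESeq2. The median log2 FC (hrPC12/wtPC12) of the 25 genes was −0.33, and 0.06 over all genes. The absolute log2 FC was below 1 in 21 of the 25. Both hrPC12 libraries lay below both wtPC12 libraries in 13 genes and above them in 6, where 35.6% and 37.9% of all tested genes did so. Without hrPC12 replicate 1, which leaves 1 library of that clone and assumes that it varies like the others, 1 of the 25, Tm7sf2, was lower and 0 were higher, against 10.6% and 11.5% of all genes. The median log2 FC was then −0.28. When that library was scaled down by the median ratio of neighbouring genes where this was above 0.4, a setting chosen after the data were seen, 4 of the 25 were lower and 0 higher, against 18% and 17.1% of all genes. This lowered Hmgcs1, Nsdhl and Acaca to log2 FC of 0.21, 0.27 and 0.75, and Insig2 from −0.34 to −0.55. The own ratio of Insig2, 0.38, was below 0.4, so it was scaled through its neighbours alone. The setting left the excess of Insig1, Scap, Acly and Scd1 in place. Of the 25, 2 were lower and 0 higher without wtPC12 replicate 1 (14.6% and 11.4% of all genes), 4 and 1 without wtPC12 replicate 2 (17.5% and 14.6%), and 2 and 3 without hrPC12 replicate 2 (11.9% and 15.6%). With every gene that had a read, 3 were lower and 1 higher (13.6% and 15.9%). The smallest 2-sided p that permuting 2 against 2 libraries allows is 0.333. The tests used here can give smaller p values because they borrow their estimate of the spread from all genes.

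**Figure D2:**
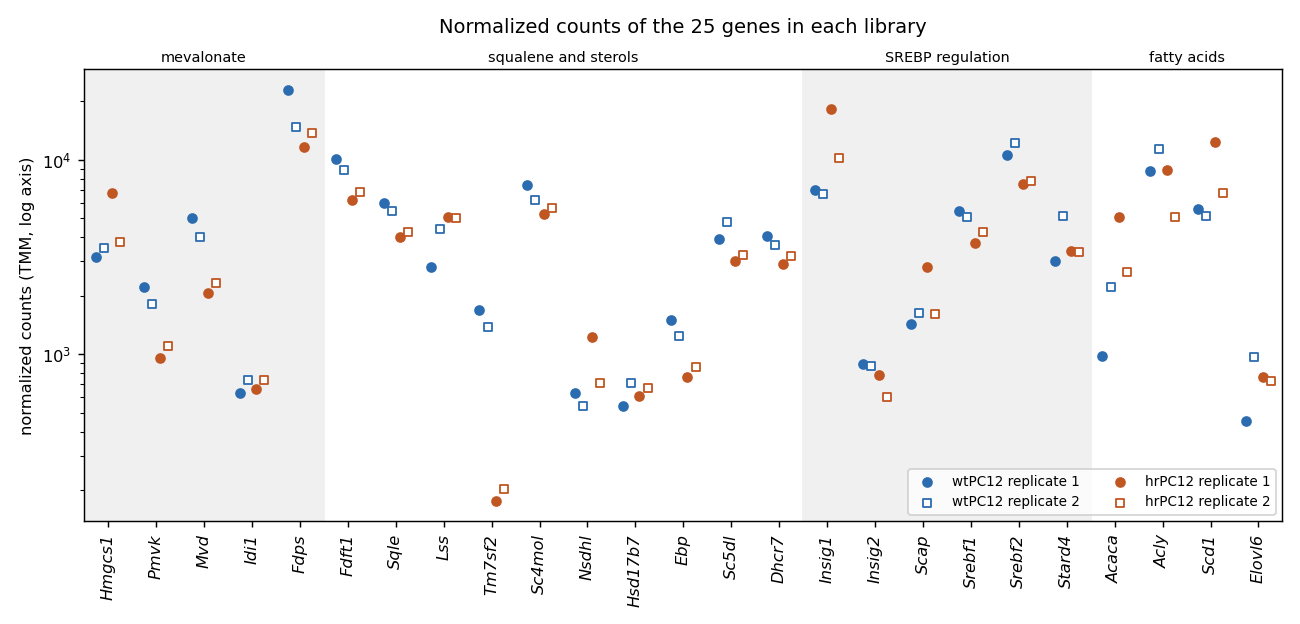
Normalized counts (log axis) of the 25 genes in each of the 4 libraries, in pathway order, with circles for replicate 1 and squares for replicate 2 of each clone. Tm7sf2 is the gene with the widest gap, at 1684 and 1389 in wtPC12 and 176 and 203 in hrPC12, while heights of different genes are not comparable because counts also grow with transcript length.

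Of the mevalonate pathway, 5 of 7 genes had a row, of which 2 were lower in hrPC12. Mvd, which codes for the mevalonate diphosphate decarboxylase, had 5007 and 4020 normalized counts in the wtPC12 libraries and 2076 and 2320 in those of hrPC12. The means were 4514 ± 697 and 2198 ± 173 (SD, n = 2), and the log2 FC was −1.04 (standard error 0.19, adjusted p = 0.0161, edgeR). Pmvk, the phosphomevalonate kinase one step before, had 2215 and 1822 normalized counts in wtPC12 and 959 and 1097 in hrPC12 (log2 FC −0.97, standard error 0.21, adjusted p = 0.0233, edgeR). In both genes the clones did not overlap, and the level in hrPC12 was lower by 2.05-fold for Mvd and 1.96-fold for Pmvk. Without hrPC12 replicate 1 their log2 FC were −0.96 and −0.88, and edgeR gave adj. p values of 0.0784 and 0.137. Pmvk also missed the threshold without wtPC12 replicate 1 (adjusted p = 0.052, edgeR) and without hrPC12 replicate 2 (adjusted p = 0.0554, edgeR).

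The neighbouring enzymes of the pathway did not pass the test. Hmgcs1, the synthase that makes HMG-CoA, had 3176 and 3517 normalized counts in wtPC12 and 6717 and 3783 in hrPC12. Its log2 FC of 0.65 (standard error 0.30) became 0.18 without the first hrPC12 library. Idi1, which isomerizes isopentenyl diphosphate, had 630 and 738 in wtPC12 and 663 and 737 in hrPC12, so the clones overlapped almost whole (log2 FC 0.03, standard error 0.22). Fdps, which joins isoprenoid units to farnesyl diphosphate, had 22892 and 14757 in wtPC12, a difference of the same order as that to hrPC12 with 11566 and 13663 (log2 FC −0.58, standard error 0.27). Acat3, which RefSeq lists as an older name of Acat2, the cytosolic thiolase that opens the pathway, had 5750 and 4551 normalized counts in wtPC12 and 8518 and 4780 in hrPC12 and was looked up after the member itself was not found. Its log2 FC was 0.37 (standard error 0.32), and −0.11 without hrPC12 replicate 1, which had more than replicate 2 by a log2 ratio of 0.83.

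From squalene to cholesterol, 10 of 11 genes had a row, 2 were lower in hrPC12 and 0 higher. Tm7sf2, one of the sterol C14 reductases that follow the demethylation of lanosterol, had 1684 and 1389 normalized counts in wtPC12 and 176 and 203 in hrPC12. The fitted log2 FC of −3.02 (standard error 0.24, adjusted p = 0.00132, edgeR), an 8.10-fold lower level, stayed with each library left out in turn between −3.17 and −2.90. It passed an adj. p value of 0.05 in each of these, while without wtPC12 replicate 2 it did not pass that of 0.01. The second wtPC12 library had 0.824 of the level of the first, and the first hrPC12 library 0.866 of the second, so the spread within a clone was small beside the difference.

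Ebp, the sterol isomerase of a later step, had 1491 and 1248 normalized counts in wtPC12 and 764 and 858 in hrPC12. The log2 FC was −0.76 with a standard error of 0.21, and at 0.0478 the adj. p value from edgeR lay close to the threshold. It missed it with library totals alone (adjusted p = 0.069, edgeR), with every gene tested (0.0512) and without wtPC12 replicate 1, hrPC12 replicate 1 or hrPC12 replicate 2 (0.0961, 0.319 and 0.132). Its log2 FC in these fits stayed between −0.89 and −0.65.

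In 5 other genes of this stretch both hrPC12 libraries lay below both wtPC12 libraries without a call. Over all tested genes this order was seen in 35.6%, called or not. Fdft1, the squalene synthase, had 10133 and 8884 normalized counts in wtPC12 and 6190 and 6855 in hrPC12 (log2 FC −0.54, standard error 0.17, adjusted p = 0.068, edgeR). Sqle, the squalene epoxidase and a rate-limiting enzyme of the pathway, had 6028 and 5462 against 3998 and 4269 (log2 FC −0.47, standard error 0.16). The oxidase Sc4mol (log2 FC −0.32), the desaturase Sc5dl (−0.48) and the reductase Dhcr7 (−0.33), which makes cholesterol in the last step of one branch, had standard errors of 0.17 to 0.18. These differences are small, about 1.25-fold for Sc4mol and 1.46-fold for Fdft1. That all 5 stayed below 0 with each library left out in turn follows from the lack of overlap.

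Lss, Nsdhl and Hsd17b7 had log2 FC above 0, and none passed the test. Lss, which closes the sterol rings, had 2826 and 4408 normalized counts in wtPC12 and 5052 and 4989 in hrPC12 (log2 FC 0.47, standard error 0.25), so that the hrPC12 libraries were close (log2 ratio 0.02) and those of wtPC12 differed by 1.56-fold. Without wtPC12 replicate 2 its log2 FC was 0.83, with an adj. p value of 0.0292 from edgeR's test. Nsdhl, a dehydrogenase of the C4 demethylation, had 633 and 542 in wtPC12 and 1221 and 714 in hrPC12, of which the first is the library that stood apart. Its log2 FC of 0.72 (standard error 0.32) was 0.28 without it. Hsd17b7, the reductase of the same step, was at 542 and 709 in wtPC12 and 610 and 674 in hrPC12, overlapping between the clones (log2 FC 0.04, standard error 0.25).

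Cyp51, the lanosterol demethylase just before Tm7sf2, had no row of that name. The files list a row CP51A_RAT, whose name is of the form of a protein database entry and could not be matched to RefSeq here, so it was not counted among the 25. It held 9114 and 10288 normalized counts in wtPC12 and 15604 and 17044 in hrPC12, so the clones did not overlap. The fitted log2 FC was 0.75 (standard error 0.18, adjusted p = 0.0319, edgeR). The count of 0 higher from squalene to cholesterol leaves this row out. Its log2 FC without hrPC12 replicate 1 was 0.81 (adjusted p = 0.176, edgeR).

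**Figure D3:**
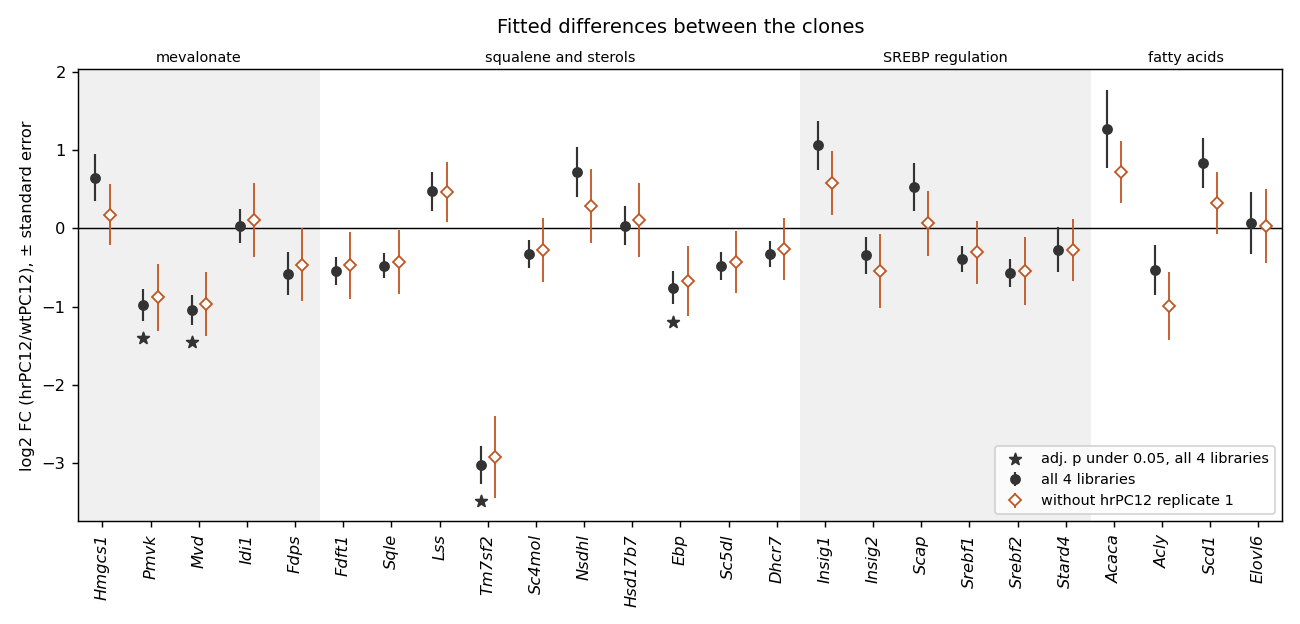
Log2 FC (hrPC12/wtPC12) with its standard error for the 25 genes in pathway order, fitted to all 4 libraries (filled circles) and without hrPC12 replicate 1 (open diamonds), with stars under genes with an adj. p value under 0.05 in the former. Stars mark Pmvk, Mvd, Tm7sf2 and Ebp. The 7 genes that were high in the first hrPC12 library move down by construction when it is left out, for example Hmgcs1 from 0.65 to 0.18.

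None of the 6 regulators and carriers passed the test with edgeR. Srebf2, the SREBP gene that mainly serves cholesterol synthesis, had 10552 and 12249 normalized counts in wtPC12 and 7549 and 7809 in hrPC12 (log2 FC −0.57, standard error 0.17, adjusted p = 0.0600, edgeR). DESeq2 gave it an adj. p value of 0.0399. Srebf1, whose products mainly serve fatty acid synthesis, had 5435 and 5071 against 3747 and 4263 (log2 FC −0.39, standard error 0.17, adjusted p = 0.131, edgeR). In both genes the hrPC12 libraries lay below those of wtPC12, an order seen in 35.6% of all tested genes. With each library left out in turn the log2 FC ranged from −0.70 to −0.46 for Srebf2 and from −0.53 to −0.30 for Srebf1. That these ranges stayed below 0 follows from the lack of overlap.

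Insig1, itself a target of SREBP and the faster of the Insig genes to respond to sterols, had 6961 and 6672 normalized counts in wtPC12 and 18269 and 10181 in hrPC12. This gave a log2 FC of 1.06 with a standard error of 0.31, just short of the threshold (adjusted p = 0.0542, edgeR). The adj. p value was below 0.05 under 4 other settings, at 0.0331 for RLE factors, 0.0237 for library totals, 0.0237 when no gene was filtered out and 0.0083 in DESeq2, and it was 0.0166 without hrPC12 replicate 2. Without hrPC12 replicate 1 the log2 FC was 0.58 with an adj. p value of 0.352 from edgeR's test, so the remaining hrPC12 library still lay above both of wtPC12. Insig2, its paralog, had 889 and 870 in wtPC12 and 783 and 602 in hrPC12, with a log2 FC of −0.34 (standard error 0.23). The difference between the responses of Insig1 and Insig2 was not tested.

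Scap, the escort of SREBP, had 1423 and 1632 normalized counts in wtPC12 and 2803 and 1602 in hrPC12. Its fitted log2 FC, 0.53 (standard error 0.31), was 0.07 without the first hrPC12 library. Stard4, which carries cholesterol between membranes, had 3015 and 5129 in wtPC12 and 3389 and 3365 in hrPC12. Its hrPC12 libraries lay between those of wtPC12, and its log2 FC of −0.27 (standard error 0.28) was 0.16 without wtPC12 replicate 2.

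Of the fatty acid enzymes, 4 of 5 had a row and none passed the test with edgeR in the 4 libraries, where 3 of the 4 were among the genes high in hrPC12 replicate 1. Acaca, which codes for the acetyl-CoA carboxylase that commits carbon to fatty acids, had 982 and 2212 normalized counts in wtPC12 and 5083 and 2635 in hrPC12. Its log2 FC of 1.27 (standard error 0.50, adjusted p = 0.108, edgeR) was the highest of the 25, while its libraries differed by 2.25-fold within wtPC12 and 1.93-fold within hrPC12. DESeq2 gave an adj. p value of 0.0223, as did edgeR one of 0.0213 without hrPC12 replicate 2, and without hrPC12 replicate 1 the log2 FC was 0.72 (adjusted p = 0.209, edgeR).

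Acly, which makes cytosolic acetyl-CoA from citrate, had 8801 and 11350 normalized counts in wtPC12 and 8877 and 5083 in hrPC12. The clones overlapped through the first hrPC12 library, and the log2 FC was −0.53 (standard error 0.32) with it and −0.99 (standard error 0.44, adjusted p = 0.0942, edgeR) without it. Scd1, a stearoyl-CoA desaturase, had 5592 and 5126 in wtPC12 and 12347 and 6714 in hrPC12. Its log2 FC of 0.83 (standard error 0.32, adjusted p = 0.103, edgeR) was 0.33 without the first hrPC12 library and 1.16 (adjusted p = 0.0306, edgeR) without the second.

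The files hold another row named Scd, a name that RefSeq gives to the gene of which Scd1 is an older name, and as a synonym to Scd2, so which desaturase each row counts is uncertain. Scd had 14829 and 27040 normalized counts in wtPC12 and 15957 and 16984 in hrPC12 (log2 FC −0.35, standard error 0.32), and did not share the excess of the first hrPC12 library (log2 ratio −0.09). Elovl6, which elongates palmitate, had 451 and 966 in wtPC12 and 765 and 728 in hrPC12, so that the wtPC12 libraries enclosed those of hrPC12 (log2 FC 0.07, standard error 0.39). The difference within wtPC12, 2.14-fold for Elovl6, 1.70-fold for Stard4 and 1.56-fold for Lss with replicate 2 higher, sets how much of a difference between the clones can be seen in these genes.

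Other genes of lipid metabolism, from 6 lists written out from general knowledge, are given for comparison with the same test. By that test 16.3% of all genes were lower in hrPC12 and 16.1% higher, and the counts below are to be read beside these shares. Of the sterol uptake, transport and efflux genes 2 of 19 tested were lower and 2 higher, with a median log2 FC of 0.03. Abcg1, which exports cholesterol from cells, fell from 1042 and 1127 normalized counts to 17.8 and 22.3 (log2 FC −5.76, standard error 0.30, adjusted p = 0.000490, edgeR), past the thresholds of the study, and its log2 FC was −5.60 without hrPC12 replicate 1. Cyp46a1, the brain cholesterol hydroxylase, was also lower (log2 FC −1.66), and its log2 FC was −1.55 (adj. p value 0.0668, edgeR) once hrPC12 replicate 1 was left out. Soat1, which esterifies cholesterol, was higher, from 382 and 709 to 1295 and 1291 (log2 FC 1.25, adjusted p = 0.0456, and 0.0320 without hrPC12 replicate 1, edgeR). Lipa, the lysosomal acid lipase, had a log2 FC of 1.64, which was 1.21 (adjusted p = 0.0683, edgeR) without that library.

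Of the factors that cleave or accompany SREBP, 1 of 11 tested was lower and 1 higher, against 16.3% and 16.1% of all genes. Both are subunits of NF-Y, the factor of the CCAAT box, in opposite directions, and any link to the promoters above was not tested. Nfyc had 772 and 655 normalized counts in wtPC12 and 1640 and 1733 in hrPC12 (log2 FC 1.24, standard error 0.20, adjusted p = 0.0112, edgeR), and 1.28 (adjusted p = 0.0183, edgeR) without hrPC12 replicate 1. Nfyb had 1612 and 1446 in wtPC12 and 892 and 991 in hrPC12 (log2 FC −0.70, standard error 0.20, adjusted p = 0.0479, edgeR). Its log2 FC without hrPC12 replicate 1 was −0.63, with an adj. p value of 0.351. Nfya, the subunit that reads the CCAAT letters, had a log2 FC of 0.16 and was named after its values were seen.

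Of the isoprenoid branches 2 of 12 tested were lower and 2 higher. The prenyl protein protease Rce1 (log2 FC −1.19) and the geranylgeranyl transferase subunit Rabggta (−0.70) were lower in hrPC12, while Zmpste24 (0.96), a protease that trims prenylated lamin A, and Dhdds (0.75), which extends isoprenoids to dolichol, were higher. Of the fatty acid supply, elongation, desaturation and activation genes 3 of 17 were lower and 5 higher, with a median of 0.20. Elovl2, an elongase of polyunsaturated fatty acids, had 1684 and 1889 normalized counts in wtPC12 and 650 and 700.2 in hrPC12 (log2 FC −1.40, adjusted p = 0.00702, edgeR, and 0.0178 without hrPC12 replicate 1). Oxsm and Acacb, a mitochondrial synthase and the acetyl-CoA carboxylase paired with oxidation, had log2 FC of 1.42 and 1.41, and the desaturase Fads2 one of 1.17. Without hrPC12 replicate 1 these 3 were not called by edgeR (adj. p values 0.157, 0.127 and 0.215). Olah and Elovl3 passed the thresholds of the study with under 100 normalized counts in every library, and were named after their values were seen. The log2 FC of Olah, 3.74, rests on only 5 and 4 reads in wtPC12, near the floor of 3 reads. Elovl3 had 23.3 and 23.7 normalized counts in wtPC12 and only 2 and 1 reads in hrPC12, under the floor of 3 reads, so no fold is given.

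Of the glycerolipid and lipid droplet genes 3 of 11 tested were lower and 0 higher (median −0.29), among them Dgat1 (log2 FC −0.96), which completes triglycerides, and Agpat2 (−0.93). Of the fatty acid oxidation genes 2 of 17 were lower, the carnitine carrier Slc25a20 (log2 FC −1.04) and the dehydrogenase Acadvl (−0.71), and 0 higher. The median log2 FC of the oxidation genes was 0.39, with 7 of the 17 above 0.4 in the log2 ratio of the hrPC12 libraries, and −0.0044 over the 16 genes fitted without hrPC12 replicate 1. Without hrPC12 replicate 1 none of the genes of these 2 lists and of the isoprenoid list was past an adj. p value of 0.05 in edgeR's test, while the log2 FC of those named stayed about as large, for example −1.15 for Rce1, 0.94 for Zmpste24, −0.92 for Dgat1 and −0.95 for Slc25a20.

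**Figure D4:**
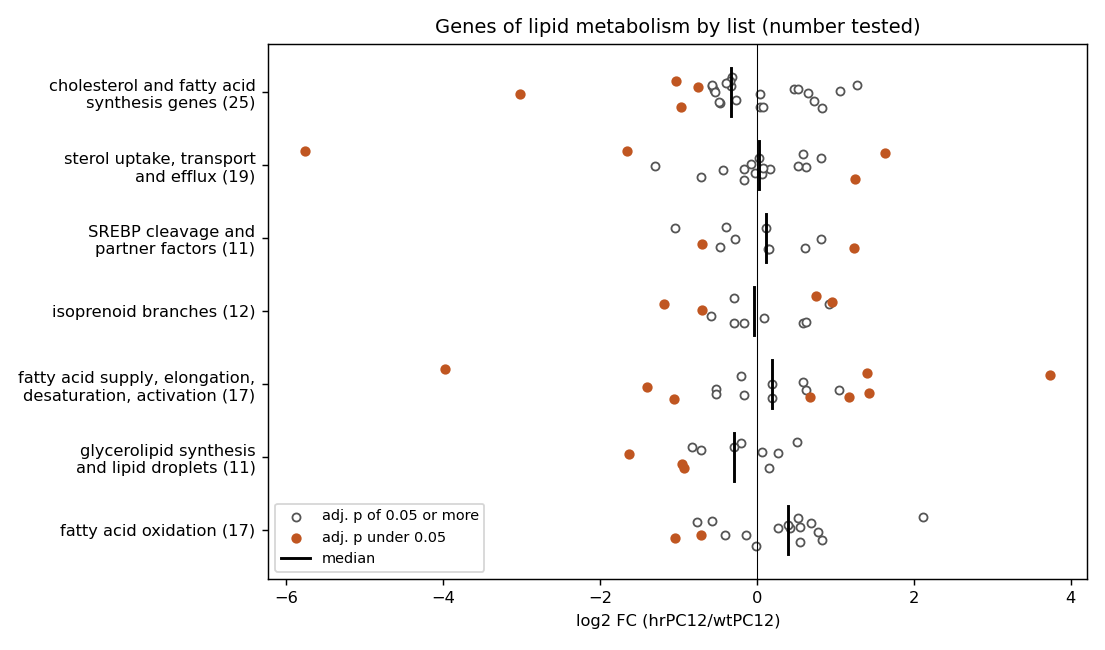
Log2 FC (hrPC12/wtPC12) of each tested gene of the 25 and of 6 other lists of lipid metabolism, with filled points for an adj. p value under 0.05 in all 4 libraries and a bar at the median of each list. The medians lie between −0.33 for the 25 genes and 0.39 for fatty acid oxidation, the latter −0.0044 without hrPC12 replicate 1, and Abcg1 at −5.76 is the point farthest to the left.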

How the data were processed

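Reads were aligned by the authors with TopHat to rn4, and the deposited files give raw counts of reads for every gene of a library. Per the submitters' processing notes the tools include TopHat2 2.0.4, HTSeq 0.5.3 and DESeq 1.9.12. The closing lines of the count files, reads that name no gene, were left out of library sizes and made up 58.7% to 62.1% of the reads listed. The authors' table of means, fold changes and p values was not used. In R 4.3.3, the counts were scaled with TMM factors and tested with edgeR 4.0.16 (glmQLFit with the legacy option on, glmQLFTest, prior count 0.125), in place of the study's DESeq, after genes averaging under 5 normalized counts, or without reads in one clone, were set aside. Normalized counts are counts divided by the effective library size and multiplied by its mean. The standard errors given with edgeR were worked back from its test, as the absolute log2 FC over the square root of the F statistic. Members, lists, thresholds and named genes (all members, Rest, and up to 4 called genes of each other list with at least 100 normalized counts) were chosen with earlier results of these data known. Alternatives were RLE factors, library totals, every gene with a read, filterByExpr, DESeq2 1.42.0, the legacy option off, a prior count of 2 and each library left out. For the order of genes on GRCr8, 75.8% of tested genes could be placed by symbol or synonym. Counts carry no molecular identifiers, so a floor of 3 reads covers counting error only.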

Additional observations from a re-analysis of the deposited data

How the results depend on the processing

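No paired analysis was possible because the labels of the clones share only 1 replicate mark. The count of 4 genes lower in hrPC12 (adj. p value under 0.05) was 3 to 5 over the alternatives to edgeR's settings, and 1 to 4 with each library left out. That of 0 higher was 1 with edgeR's RLE factors, library totals alone or every gene with at least 1 read, 2 with DESeq2, and 0 to 3 with each library left out. The gene past both thresholds, Tm7sf2, stayed so except without wtPC12 replicate 2, which gave a range of 0 to 1. The median log2 FC of the 25 genes ranged from −0.37 to −0.26. Idi1 turned from 0.03 to −0.0052 under RLE scaling and −0.0008 in DESeq2, and ranged from −0.11 to 0.15 with each library left out. Hsd17b7 ranged from −0.17 to 0.24, Stard4 from −0.63 to 0.16 and Elovl6 from −0.40 to 0.73, and in these 4 genes the sign changed with the library left out. Library totals alone moved the median of all genes from 0.06 to 0.13. With hrPC12 replicate 1 scaled down by the ratio of neighbouring genes, an alternative chosen after seeing the data, 4 genes were lower, 0 higher and the median was −0.32. The cause of these changes was not tested.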
